A study of Mus musculus with 2 samples.

Results

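The cluster described here is a group of 13 anchors joined by 26 BRD2 loops on mouse chromosome 5, which ends at about the start of Med13l. Its members were chosen from a single list of 7732 loops with 9407 anchors. They are the loops on chromosome 5 with a left or right outer edge between 118720000 and 119020000 of mm9, with loops over 5 Mb set apart. No loop over 5 Mb had an edge in this window, and none of the 26 had only 1 edge in it. The cluster thus holds 0.336% of the loops and 0.138% of the anchors of the list. The choice used the positions and the number of these loops, so the values below describe the cluster and carry no test.

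Chromatin contacts were measured by ChIA-PET, in which chromatin is precipitated with an antibody, nearby DNA ends are ligated and the joined places are read by paired-end sequencing. The antibody was against BRD2, and the cells were untreated wild-type V6.5, a mouse embryonic stem cell line grown on irradiated fibroblasts with serum and LIF. The 2 samples, replicates 1 and 2 of this 1 group, entered a merged list, so no value below has a replicate error, and the design gives no comparison between conditions. A loop in this list is a place where BRD2-bound chromatin was joined and carries no gene level.

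BRD2 is a BET protein and reads acetylated histones through its bromodomains, mostly at promoters and enhancers in use. Med13l encodes a subunit of the kinase module of Mediator, the complex that passes signals from transcription factors to RNA polymerase II. The module also holds CDK8 or CDK19, cyclin C, and MED12 or MED12L, and MED13L or its paralog MED13 links it to the core of Mediator. Loops at the genes of these other subunits were not analysed here, because the gene table used is on another build than the loops.

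The position of Med13l relative to the cluster comes from the rule that defined it, which puts the start of the gene at about 119.01 Mb of mm9. The last anchor of the cluster ends at 119010318. Whether it covers the promoter was not checked, since the annotation used here is on GRCm38.p6 and positions were not converted. In that annotation Med13l lies on the plus strand, so lower coordinates are upstream of it. By gene order there, 7 genes separate Med13l from the nearest protein-coding gene upstream, Spring1: 5 lncRNAs, 1 snoRNA and 1 pseudogene. Downstream, 14 genes lie between Med13l and the next protein-coding gene, Tbx3, which encodes a T-box transcription factor. Which of these genes lie at anchors was not analysed here.

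The promoter of Med13l is shown because it is the gene start that the cluster runs up to. It is the 250 bases before the RefSeq start on GRCm38.p6, chr5:118560469-118560718, plus strand, with each CG dinucleotide in capitals.
Med13l promoter: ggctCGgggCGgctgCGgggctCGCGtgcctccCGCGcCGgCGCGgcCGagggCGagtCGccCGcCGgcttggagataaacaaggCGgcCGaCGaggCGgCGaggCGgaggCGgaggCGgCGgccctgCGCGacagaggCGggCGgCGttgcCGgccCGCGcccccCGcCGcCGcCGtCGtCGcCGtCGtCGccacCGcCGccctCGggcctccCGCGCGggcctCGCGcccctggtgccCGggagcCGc
Of these bases, 84.0% are G or C, against a median of 52.4% over 32851 windows of the same length in the RefSeq promoter table, and 0.268% of the windows had a share as high. The stretch holds 51 CG dinucleotides, against a median of 6, and 0.067% of the windows held as many. The GC box GGGCGG, searched on both strands, matched 3 times, while 32.7% of all windows held a match and 8.47% held as many. Each of its matches includes a CG dinucleotide. The letters TATAAA, found in 12.4% of windows on either strand, and CCAAT, found in 33.8%, did not occur.

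The first start and end of each row were read as the outer edges of a loop, and a left edge followed within 5000 bp by a right edge made 1 anchor with 2 known sides. This reading is an inference from the values. Lengths are given between outer edges. Each loop has 1 score as the authors deposited it, a whole multiple of 1000 in all 7732 loops, with 2000 as the lowest. No source used here gives the unit of the score or the sequencing depth, so no counting error can be given, and a pair of anchors without a listed loop may still be in contact.

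The 13 anchors are numbered from left to right, and the cluster spans 282 kb. Anchors 1, 2 and 3 start at 118728156, 118781737 and 118794083, with their right edges unknown. Anchor 4 lies at 118803750 to 118803944 and anchor 5 at 118831245 to 118831393. Anchor 6, the one with the most partners, lies at 118885698 to 118885913, and its neighbour, anchor 7, at 118896007 to 118896164. Anchor 8 at 118909227 to 118909337 and anchor 9 at 118914877 to 118915108 are the closest pair, 5.54 kb apart. Anchor 10 lies at 118928341 to 118928618 and anchor 11 at 118951458 to 118951984. Anchors 12 and 13 end at 118960093 and 119010318, with their left edges unknown. Neighbouring anchors were 5.54 to 54.3 kb apart, with a median of 13.1 kb. The median was 27.3 kb over 9249 gaps between neighbouring anchors of the list. Those gaps also include stretches between sets of anchors that no loop joins. The cluster was chosen for its many loops, so the 2 medians are not like for like. The 8 anchors with both edges known were 110 to 526 bp wide, and 7 of them were narrower than the list's median of 349.5 bp over 2084 anchors.

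**Figure D1:**
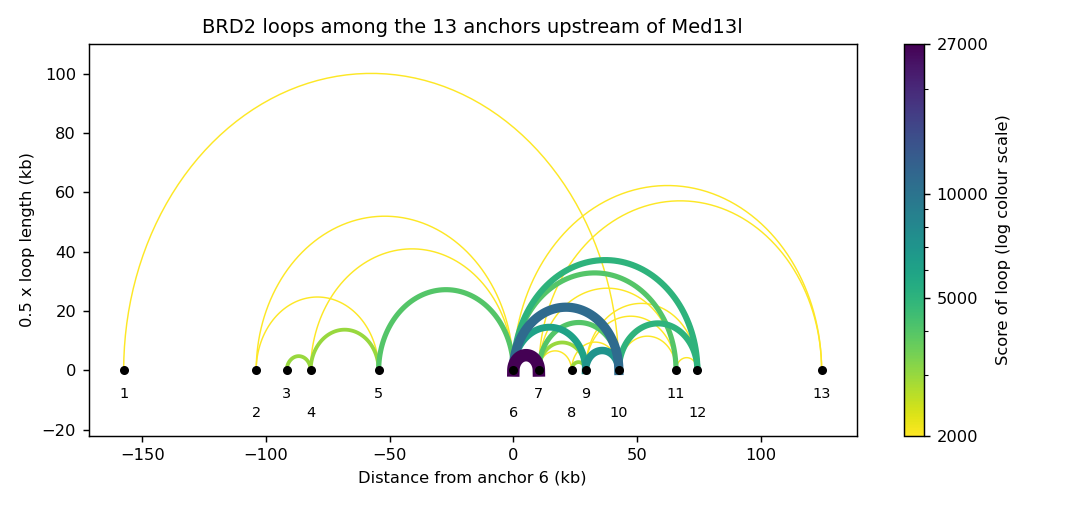
Loops of the cluster as arcs between anchors 1 to 13 (black points), placed by distance from anchor 6 in kb, with 0.5 times the loop length in kb as the height. The left edge of an anchor is used, or the right edge for anchors 12 and 13. Colour (log scale) and line width show the score, from 2000 to 27000. The arcs with the highest scores leave anchor 6 to the right, and 1 arc, from anchor 1 to anchor 10, passes over anchor 6.

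The cluster was lopsided around anchor 6. This anchor had 9 partners, of which 3 lay upstream and 6 downstream, and its 9 loops held 63000 of the summed score of 111000, or 56.8%. The 6 downstream loops summed to 55000 and the 3 upstream loops to 8000. Spacing differed as well, with the nearest anchor 54.3 kb away upstream and 10.1 kb away downstream. Upstream loops of 54.7 and 82.2 kb had scores of 4000 and 2000, and downstream loops of 66.3 and 74.4 kb had 4000 and 5000. Beyond 100 kb, the upstream loop of 104.2 kb and the downstream loop of 124.6 kb both had 2000. Over the whole list, 10 anchors, or 0.108%, had 9 or more partners through loops of up to 5 Mb, and 9 anchors had a summed score of 63000 or more. The median anchor of the list had 1 partner and a summed score of 3000.

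The strongest contact of the cluster, and of the 475 loops of chromosome 5, joined anchor 6 to anchor 7 over 10.5 kb with a score of 27000. The second score on the chromosome was 15000, outside the cluster. Only 5 of the 7732 loops reached 27000. Anchor 6 also had loops to anchor 9 (29.4 kb, score 6000), to anchor 10 (42.9 kb, score 11000) and to anchor 11 (66.3 kb, score 4000). Its other downstream loops ran to anchor 12 (74.4 kb, score 5000) and to anchor 13, the one at about the start of Med13l (124.6 kb, score 2000). Scores of these 6 loops thus did not fall evenly with distance: the loop to anchor 10 scored above the shorter loop to anchor 9. No loop was listed from anchor 6 to anchor 8, which lies between anchors 7 and 9 at an outer distance of 23.6 kb from anchor 6.

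Anchor 7 had 6 partners and a summed score of 40000, of which the loop to anchor 6 gave 27000. Its loops to anchors 8, 9 and 10 had scores of 2000, 3000 and 4000 at lengths of 13.3, 19.1 and 32.6 kb, so the score was higher for the farther of these anchors. The loops of anchor 7 to anchors 11 and 13 both had the lowest score, 2000. Steps of 1000 among such low scores have no error attached, and the order they give may not be stable.

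Anchor 10 was the anchor with the second most partners, 7 in all, of which 5 lay upstream. Its summed score was 33000. It had loops to anchor 6 (score 11000), anchor 9 (13.7 kb, score 7000) and anchor 12 (31.8 kb, score 5000). Its loops to anchors 7, 8 and 11 had scores of 4000, 2000 and 2000. Anchor 12 scored above the nearer anchor 11 from anchor 6 (5000 and 4000) and from anchor 10 (5000 and 2000), and the same as anchor 11 from anchor 9 (2000 each). Anchor 7 went the other way, with a listed loop to anchor 11 (2000) and none to anchor 12. Anchor 10 was also the only listed partner of anchor 1, through the longest loop of the cluster, 200.5 kb with a score of 2000.

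Among the other downstream anchors, anchor 9 had 6 partners and a summed score of 23000, and its loop to anchor 8 had a score of 3000 over 5.88 kb, the shortest of the cluster. Anchor 8 had 3 partners, anchors 7, 9 and 10, and a summed score of 7000. Anchor 11 had 5 partners and a summed score of 12000, and anchor 12 had 4 partners, all upstream, and a summed score of 14000. The loop between these neighbours, anchors 11 and 12, was 8.63 kb long and had a score of 2000.

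**Figure D2:**
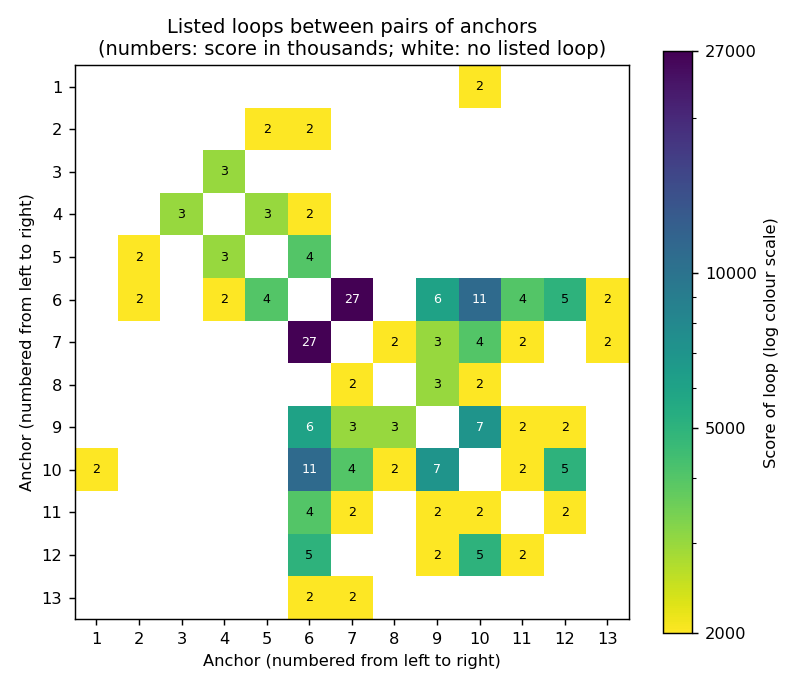
Scores of listed loops between pairs of the 13 anchors, with both axes numbered from left to right. Coloured cells (log scale) carry the score divided by 1000 and white cells have no listed loop. The cells among anchors 6 to 12 are mostly filled, and row 6 holds the 27000 and 11000 of the loops to anchors 7 and 10.

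Anchor 6 and the 7 anchors downstream of it formed a dense set. Within 124.6 kb, 19 of their 28 possible pairs, or 67.9%, had a listed loop, and these 19 loops held 83.8% of the cluster's summed score. They closed 20 of the cluster's 22 triangles, a triangle being 3 anchors with a loop between each pair. The 22 became 13 with edges closer than 10000 bp joined and 5 with loops above the lowest score only. In 2 sets of 5 anchors, every pair was joined: anchors 6, 7, 9, 10 and 11, with a summed score of 68000, and anchors 6, 9, 10, 11 and 12, with 46000. Of the 9 pairs without a loop, 5 involved anchor 13 and 3 involved anchor 8 with anchors 6, 11 and 12. The remaining pair was anchors 7 and 12.

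The upstream arm, anchors 1 to 5, held few loops. Of its 10 possible pairs, 3 had a loop, with a summed score of 8000 and no triangle among them. By the median its scores were not lower, at 3000 over these 3 loops and 2000 over the 13 loops among anchors 7 to 13. Above the lowest score lay 2 of the 3 and 5 of the 13. The highest score went the other way, with 3000 in this arm and 7000 among anchors 7 to 13. With so few loops the order of the medians may not be stable. Anchors 3 and 4 were joined over 9.86 kb with a score of 3000, anchors 4 and 5 over 27.6 kb with a score of 3000, and anchors 2 and 5 over 49.7 kb with a score of 2000. Anchor 6 was joined to anchor 5 (54.7 kb, score 4000), to anchor 4 (82.2 kb, score 2000) and to anchor 2 (104.2 kb, score 2000). These loops made a chain of scores of 3000, 3000 and 4000 along anchors 3, 4, 5 and 6, while the loops that passed over an anchor in this arm had the lowest score.

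The upstream and downstream arms met almost only at anchor 6. Of the 35 possible pairs of an upstream with a downstream anchor, 1 had a loop, that from anchor 1 to anchor 10. The unlisted pairs had outer distances from 64.9 kb (anchors 5 and 7) to 282 kb (anchors 1 and 13), mostly over 100 kb. The whole cluster had only 4 loops over 100 kb. Distance and the position of anchor 6 thus cannot be told apart here. With anchor 6 left out, the cluster fell into 2 pieces of 8 and 4 anchors, the smaller being anchors 2 to 5. Leaving out anchor 4 cut off only anchor 3, and leaving out anchor 10 only anchor 1. The split at anchor 6 was looked for after the values were seen.

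**Figure D3:**
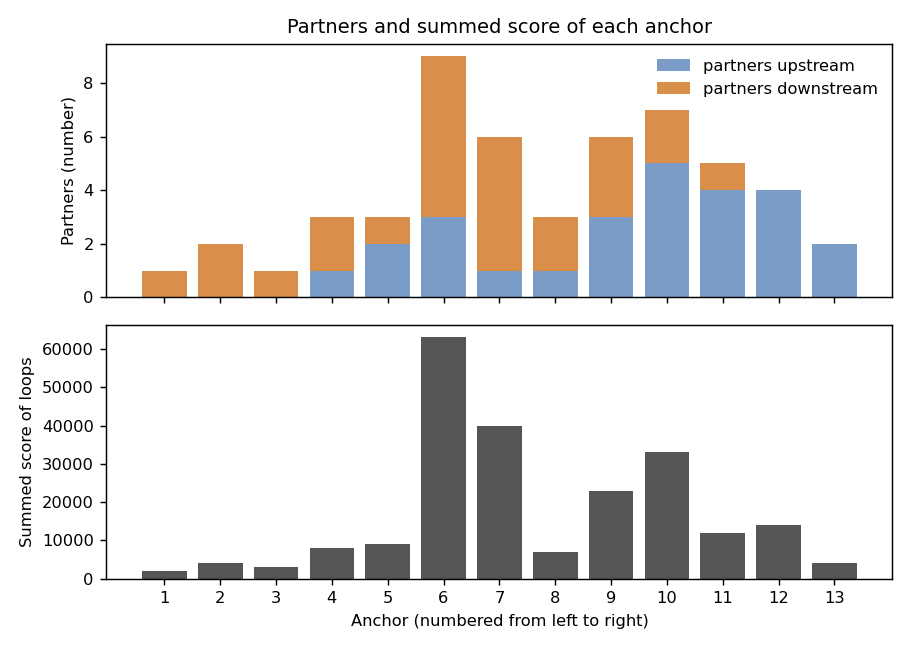
Number of partners of each anchor, upstream (blue) and downstream (orange), above its summed score (grey bars), for anchors 1 to 13 from left to right. Anchor 6 has 9 partners and a summed score of 63000, followed by anchor 7 at 40000 and anchor 10 at 33000, while anchors 1, 2, 3 and 13 lie at 4000 or less.

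The contacts of anchor 13, the one nearest to the start of Med13l, were few and at the lowest score. It had 2 partners, both upstream: anchor 6 at 124.6 kb and anchor 7 at 114.3 kb, each with a score of 2000. These partners are also the ends of the cluster's strongest loop, so anchors 6, 7 and 13 formed a triangle with scores of 27000, 2000 and 2000. No loop joined anchor 13 to its neighbour, anchor 12, across a gap of 50.2 kb, or to any anchor downstream of it. At the score of 2000, which 4472 loops of the list share, the list cannot rank this contact above the others.

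The cluster stood apart from the other anchors of loops of up to 5 Mb. The nearest anchor of a loop of up to 5 Mb lay 864 kb upstream, at 117863919, and had 1 partner. The nearest downstream lay 1027 kb away, at 120037608, and had 2 partners. Of the 9249 gaps between neighbouring anchors in the list, 6.29% were at least as wide as the upstream gap and 5.63% at least as wide as the downstream one. These 9249 include gaps inside sets of joined anchors. The share among gaps at the ends of such sets was not analysed, so these values do not show that such isolation is rare. The first loop of the cluster began 8.16 kb inside the chosen window and the last ended 9.68 kb inside it. Anchors of loops over 5 Mb did not enter the distances to the nearest anchors. Loops that passed over the whole window numbered 8. They were 16.8 to 106 Mb long with a score of 2000 each.

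Scores in the cluster were spread widely. Of the 26 loops, 13 had the lowest score of 2000, 4 had 3000, 3 had 4000, 2 had 5000, and 1 each had 6000, 7000, 11000 and 27000. The mean was 4269 ± 5088 (SD over 26 loops), against 3101 ± 2268 over the 7570 loops of the list of up to 5 Mb. The share above the lowest score was 50.0% in the cluster (exact Clopper-Pearson 95% interval 29.9 to 70.1%) and 43.0% in the list (41.9 to 44.1%). These intervals treat loops as independent draws, which they are not, since loops share anchors and come from 1 merged list. They measure no error between replicates and serve as a description only. The 3 highest scores made up 40.5% of the cluster's sum, and without the strongest loop the sum was 84000.

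Lengths in the cluster ran from 5.88 to 200.5 kb with a median of 34.9 kb, against 27.7 kb in the list of loops of up to 5 Mb. Score and length had a Spearman's rho of -0.285 over the 26 loops, -0.221 without the strongest loop, and -0.223 over 6958 other loops of the list in the same range of length. These coefficients are descriptions, since loops share anchors and libraries. Of the 8 loops of 5 to 20 kb, 5 lay above the lowest score, as did 5 of the 9 loops of 20 to 50 kb and 3 of the 5 loops of 50 to 100 kb. In the rest of the list these shares were 55.0%, 41.8% and 32.5%. All 4 loops of the cluster over 100 kb, at 104.2 to 200.5 kb, had the lowest score. In the rest of the list 27.5% of the 1195 loops of 100 to 500 kb lay above it. That range reaches longer loops, and 4 loops are too few to be told from this share.

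**Figure D4:**
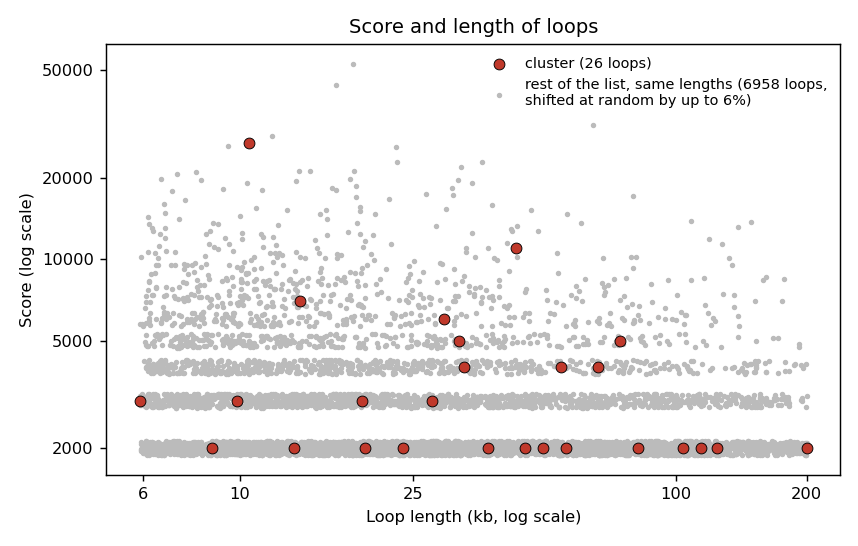
Score against loop length in kb, both on log scales, for the 26 loops of the cluster (red) and 6958 other loops of the list in the same range of length (grey, shifted slightly so that equal scores can be seen). The red points reach 27000 at 10.5 kb and 11000 at 42.9 kb, and the 4 red points over 100 kb lie at 2000.

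Most neighbouring anchors of the cluster were joined, with a loop for 9 of the 12 neighbouring pairs. The other 17 loops passed over 1 to 8 anchors. With 26 loops and 13 anchors, at least 14 loops must pass over an anchor, so this number follows largely from the choice of the cluster. The median score was 3000 for the 9 neighbouring loops and 2000 for the 17 others, of which 10 had the lowest score. The 3 neighbouring pairs without a loop were anchors 1 and 2, anchors 2 and 3, and anchors 12 and 13.

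The cluster was compared with other anchors that are joined directly or through others, called connected groups, with loops over 5 Mb set apart. The 26 loops and 13 anchors form exactly 1 of 2686 such groups. Of these, 125 had 10 or more anchors, and among them the cluster ranked 39th by number of anchors, tied with 13 others, but 9th by loops. It ranked 5th by triangles (22, median of the 125 groups 2). With edges closer than 10000 bp joined it had 13 triangles and ranked 1st of 65 such groups (median 2). With loops above the lowest score only it had 5, near the median of 4, and ranked 5th of 12. In both settings the limit of 10 anchors was applied again, and the cluster had exactly 10. Groups with more triangles may have dropped below the limit, so these ranks and the 5th of 125 are not like for like. Without these changes the cluster ranked 4th by the share of closed sets, 31.4% (median 8.82%). A closed set is 3 anchors joined by 3 loops, counted among all sets of 3 anchors joined by at least 2. It ranked 8th by summed score, 111000 (median 48000). It was more compact than most, ranking 87th by span. By the share of loops above the lowest score, 50.0%, it ranked only 39th, near the median of 45.5%. Its strongest anchor held 56.8% of the summed score, which ranked 15th (median 41.2%), so 14 groups had a higher share.

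Among the 14 groups with 13 anchors, the cluster had the most loops, 26, and the most triangles, 22. The next, on chromosome 4 from 132501455 to 132686912, had 25 loops and 14 triangles, and its highest score was 9000. The median of the 14 groups was 16 loops and 4 triangles. The cluster was chosen for its many loops. Its ranks by loops and triangles, here and among the 125 groups, are tied to that choice and carry no separate weight.

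Of the 125 groups, 4 had more triangles than the cluster. In the cluster upstream of Med13l 33.3% of possible pairs had a loop. The group on chromosome 17 from 37057219 to 37334120, with 11 anchors, 31 loops and 39 triangles, had 56.4% of its pairs joined. The group on chromosome 12 from 88108842 to 88288820, which is near the cluster in size with 12 anchors, 30 loops and 23 triangles, had 45.5% joined and a highest score of 7000. The group on chromosome 17 from 71056403 to 71351696, with 16 anchors, 36 loops and 29 triangles, had 30.0% joined and a highest score of 12000. The group on chromosome 1 from 87956086 to 89072553, with 18 anchors, 36 loops and 28 triangles, had 23.5% joined and a summed score of 248000. The strongest anchor held 56.8% of the summed score in the cluster, and 41.2%, 28.7%, 34.0% and 48.4% in these 4 groups in the order given. Another group on chromosome 5, from 64782626 to 65253379, held 12 anchors joined by 19 loops and came close to the cluster in this respect with 52.1%. It was chosen after its values were seen, as was the group on chromosome 12.

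**Figure D5:**
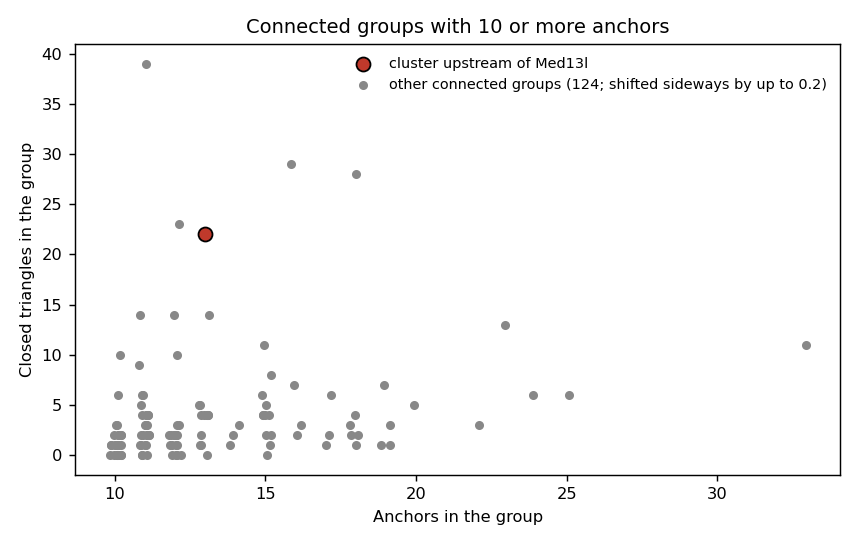
Closed triangles against the number of anchors for the 125 connected groups with 10 or more anchors, with loops over 5 Mb set apart. The cluster (red) has 22 triangles at 13 anchors, and 4 of the other groups (grey) lie above it.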

How the data were processed

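The deposited data used here are 1 list of loops. Per the file header, these are high-confidence interactions from merged data, which means that the authors pooled the 2 replicates. The tools cutadapt and Bowtie and the mm9 build appear in the submitters' processing notes. No source used here gives the interaction caller, its thresholds or the depth. The score of each loop is used as the authors deposited it. The second anchor's columns repeat the left edge in 7732 loops and were not used.

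Edges were resolved into anchors, and anchors into connected groups with networkx 3.6.1, with shares and ranks in Python 3.11.15, numpy 2.4.6, pandas 2.3.3 and scipy 1.17.1. Figures used matplotlib 3.10.9. On simulated data with 7732 loops, 100% of anchors were found again. These were spaced wider than the limit for pairing edges, so full recovery followed from the setting. It does not check anchors that lie closer together.

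The members, the lists and the groups used for comparison were chosen with earlier results of these data known. All anchors and loops of the cluster are described, and no test was run. Alternatives changed the joining of edges, the lowest score, the window and the loops over 5 Mb. Promoter sequence and gene order are from RefSeq on GRCm38.p6 and were not placed on mm9.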

Additional observations from a re-analysis of the deposited data

How the results depend on the processing

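The 9 results of the cluster kept their values in settings that pick the same loops as the window, so this follows by construction. These were both outer edges required in the window, the connected group of the strongest loop in place of the window, and loops over 5 Mb included. With loops above the lowest score only, 13 loops in 1 connected piece of 10 anchors remained, with a median score of 4000, 100% above the lowest score by construction, a median length of 29.4 kb, 2.60 partners per anchor, 5 triangles and a summed score of 85000; anchors 1, 2 and 13 dropped out, so the contact of the anchor at about the start of Med13l rests on loops at the lowest score. With edges closer than 10000 bp joined, 10 anchors and 23 loops remained, with a median score of 2000, a median length of 42.9 kb, 3.60 partners per anchor, 13 triangles and a summed score of 103000. Between inner edges, known for 16 loops, the median length was 28.1 kb. Without the strongest loop the summed score was 84000. Without anchor 6, an alternative chosen after seeing the data, 17 loops remained, with a median score of 2000, a median length of 27.6 kb, 2.83 partners per anchor, 10 triangles and a summed score of 48000. Apart from the settings that pick the same loops, fewer loops or anchors enter by construction. Replicates could not be left out of a merged list. No paired analysis was possible because all samples belong to 1 group. The depth is unknown, so the lack of a listed loop has no detection limit.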
